A study of Arabidopsis thaliana with 9 samples.

Results

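In Arabidopsis seedlings kept on 2 plant hormones, 216 nuclear genes held their array signal for 2 d and were then lower at 8 d, by a median of 3.47-fold. They were represented by 217 probe sets, chosen by their mean log2 signals at the 3 time points from 5455 probe sets that match exactly 1 nuclear gene (5419 genes). A probe set is the group of short probes on an Affymetrix array that reports 1 transcript. The rule asked for a highest mean log2 signal of at least 7, a difference between 0 d and 2 d under 0.5 in either direction, and a change from 2 d to 8 d of -1.5 or lower. The rule left out 7 genes by name: PSBY, SBPASE, CHLM, PRK and EXPA8 met these limits, whereas FMA and STOMAGEN missed them at a 2 d to 8 d change of -1.40 and a 0 d to 2 d change of -0.55. Because the rule used the means of all 3 time points, the falls are a description and carry no test. Of the 216 genes, 45 have a symbol of their own in the reference gene table and 171 are known by locus only.

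Whole wild-type seedlings of Arabidopsis thaliana were profiled on 9 arrays, 3 for each time point. The 0 d group was 4 d old and had received no hormone, and the other groups were of the same age at the start and then spent 2 d or 8 d on the same basal (MS) medium supplemented with 2.26 µM 2,4-D, a synthetic auxin, and 0.46 µM kinetin, a cytokinin. Days on hormone and age increase in step here, and no hormone-free group of 2 d or 8 d was analysed. The labels do not say that the 3 arrays of a group came from separate cultures, so each p-value reflects variation among arrays that could be technical replicates.

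Chloroplasts capture light in thylakoid membranes, where the photosystems, the cytochrome complex and the ATP synthase drive linear electron flow, and where the NDH complex and the PGR5 and PGRL1 proteins return electrons in a cycle. Most of the proteins that build, repair and regulate this machinery are encoded in the nucleus, among them assembly factors, thioredoxins that switch enzymes on in light, and enzymes of pigment synthesis. Photorespiration is the linked pathway that salvages the product of Rubisco's reaction with oxygen through chloroplast, peroxisome and mitochondrion. High auxin with cytokinin is the classical recipe for callus, a mass of dividing cells with little leaf character. In RNA of whole seedlings, fewer cells of a type and less RNA per cell cannot be told apart.

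The 217 members had a median log2 change of -1.79 from 2 d to 8 d, with a range from -3.83 to -1.501, against a median of 0.26 for all 10343 probe sets of the table. The difference between these medians was -2.05. Falls of 2 or more on the log2 scale were reached by 68 members and of 3 or more by 6. From 0 d to 2 d their changes ran from -0.50 to 0.49 with a median of 0.016, 114 above and 103 below 0. Against 0 d, the 8 d means gave a median change of -1.87 on the log2 scale, with values from -3.93 to -1.13.

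All 217 members had every 8 d array below every 2 d array and every 0 d array, where 30.6% and 36.7% of all probe sets did, a count that the rule largely fixed. The smallest gap between the lowest 2 d and the highest 8 d array was 0.37 on the log2 scale, in AT2G40460, and the median gap was 1.29. The flatness up to 2 d was looser. The 0 d and 2 d arrays overlapped in 151 members, stood wholly lower at 2 d in 43 and wholly higher in 23. In the limma fit over the whole table, with calls made at an adjusted p below 0.05 together with an absolute log2 change of 1 or more, 14.7% of probe sets were called lower and 7.36% higher in 8 d against 2 d, 5.20% lower and 9.75% higher in 2 d against 0 d, and 18.1% lower and 25.4% higher in 8 d against 0 d. The rule used these contrasts, so the members' 217 lower calls at 8 d and 0 calls at 2 d are not read further.

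**Figure D1:**
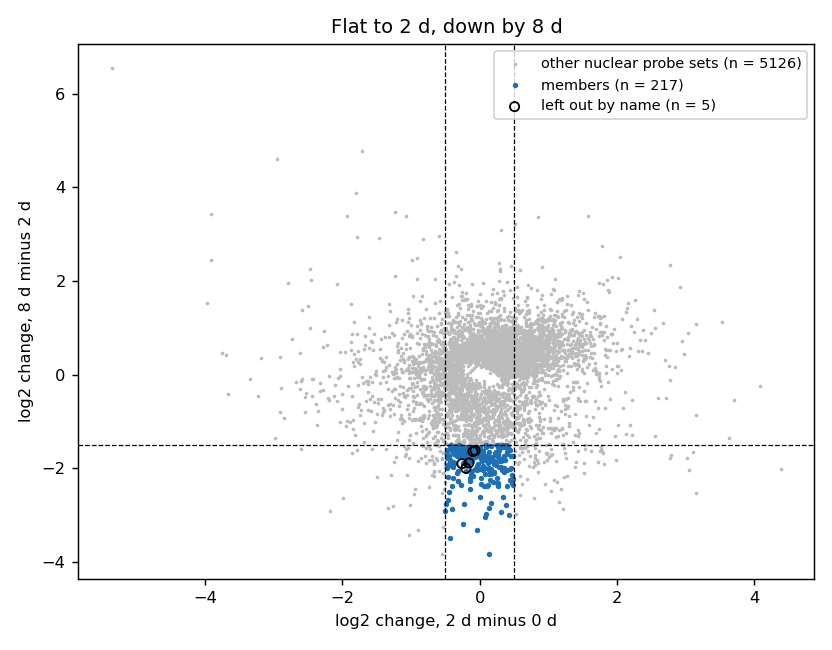
Log2 change from 0 d to 2 d (x) against log2 change from 2 d to 8 d (y) for nuclear probe sets with a highest mean of at least 7, 1 point each. The 217 members (blue) fill the box under -1.5 and between -0.5 and 0.5 (dashed limits), and the 5 probe sets left out by name are circled in the same box.

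The limits cut through a continuous cloud. Among the 2934 probe sets that were flat up to 2 d, the last admitted were AT1G72030 at -1.501, CRR21 at -1.5015, AT2G27360 at -1.505 and AT2G21860 at -1.505. The first refused were AT2G42320 at -1.4998, AT1G54500 at -1.498, AT2G03550 at -1.497 and AT3G61080 at -1.496. At the limit on early change, AT2G34620 was admitted at -0.497, AT5G17700 at 0.494, AT5G41050 at 0.492 and AT5G50915 at 0.488, while SFP2 at -0.501, AT3G15520 at -0.502, AT4G24700 at 0.506 and AT2G43560 at -0.509 were not. At the limit on signal, AT2G40460, AT2G16750, ATMYC1 and PSY1R had highest means of 7.02 to 7.47, and AT1G50590 and AT5G66520 were refused at 6.62 and 6.44. In all, 363 probe sets were lower by at least 1.5 at 8 d than at 2 d, of which 62 were already lower at 2 d by the flat limit and 79 were higher.

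Single arrays stood apart for these genes. At 2 d, replicate 1 was the lowest of the 3 arrays in 191 of 217 members (88.0%), against 37.4% of the 5131 other nuclear probe sets over the signal limit. At 8 d, replicate 3 was the highest in 178 members (82.03%), against 35.2%. Both held in 159 members (73.3%), against 17.4%. Relative to its own 0 d mean, the median member stood at -0.26, 0.12 and 0.14 on the log2 scale in 2 d replicates 1, 2 and 3, and at -2.07, -1.92 and -1.63 in the 8 d replicates. The array medians over the whole table were 510.4, 501 and 505 for the 2 d arrays, where replicate 1 was the highest, and 538, 541 and 546 for the 8 d arrays, which ran in the members' order by a far smaller margin. The members' median SD over 3 arrays was accordingly 0.10 at 0 d, 0.26 at 2 d and 0.27 at 8 d, against 0.13, 0.16 and 0.13 for nuclear probe sets over the signal limit. Without 2 d replicate 1 the same limits gave 241 probe sets, and the 217 members had a median change of -1.94. Without 8 d replicate 3 the limits gave 244 probe sets, and the 217 members had a median of -1.95.

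**Figure D2:**
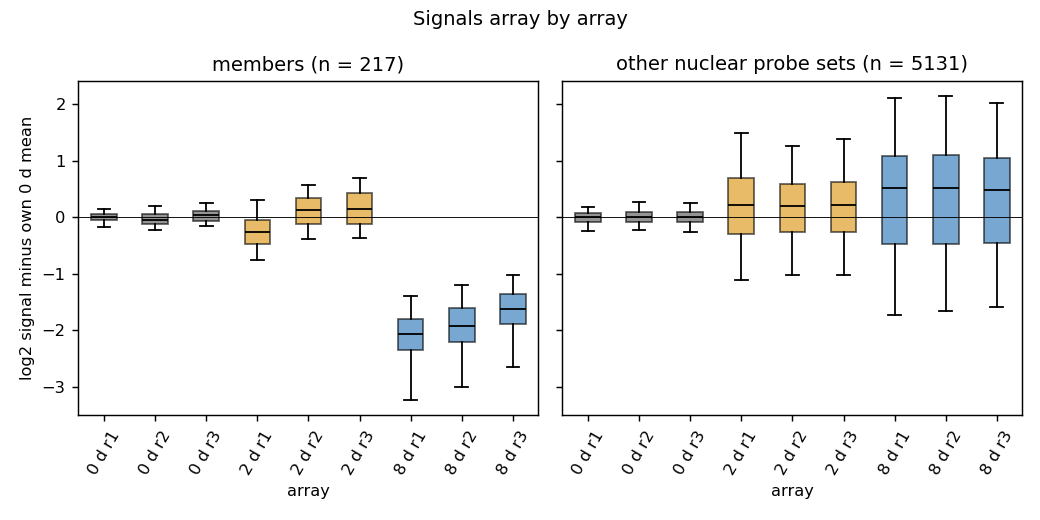
Log2 signal minus the probe set's own 0 d mean on each of the 9 arrays (boxes: quartiles and median, whiskers: 5th to 95th percentile) for the 217 members and the 5131 other nuclear probe sets. Member medians are near 0 at 0 d and lie at -0.26, 0.12 and 0.14 at 2 d and at -2.07, -1.92 and -1.63 at 8 d, while the other probe sets have like medians on the 3 arrays of each time point.

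The same order of arrays appeared beyond the members. In the 62 falls already lower at 2 d, 2 d replicate 1 was lowest in 75.8% and 8 d replicate 3 highest in 67.7%. In the 79 falls that were higher at 2 d, these shares were 84.8% and 72.15%. Both sets were picked on the change from 2 d to 8 d, which shares these arrays. The bins and the correlation below include the members. For 2 d replicate 1 the order was graded by how far a gene changed over time. Binned by the change from 0 d to 8 d, a contrast that uses no 2 d array, the median deviation of 2 d replicate 1 from its 2 companions went from -0.34 for probe sets below -2 to 0.23 for those between 1.5 and 2. Over the 5348 nuclear probe sets the correlation was 0.415 (Pearson) and 0.45 (Spearman), across probe sets that share the same arrays and are not independent. For 8 d replicate 3 the median deviation was 0.46 in probe sets that changed by less than -2 from 2 d to 8 d and 0.32 in those from -2 to -1.5, but that contrast shares the 8 d arrays. All 217 members lie in those bins. Binned by the change from 0 d to 2 d, which uses no 8 d array, the same deviation showed little grading, with bin medians from -0.13 to 0.11. The 45 probe sets that were flat up to 2 d and then rose by at least 1.5 had 2 d replicate 1 highest in 55.6%, against 43.9% of the other nuclear probe sets. In these 45 probe sets 8 d replicate 3 was also the highest array in 44.4%, with a median deviation of 0.11, the same sign as in the members. The source of this order among the arrays was not tested.

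**Figure D3:**
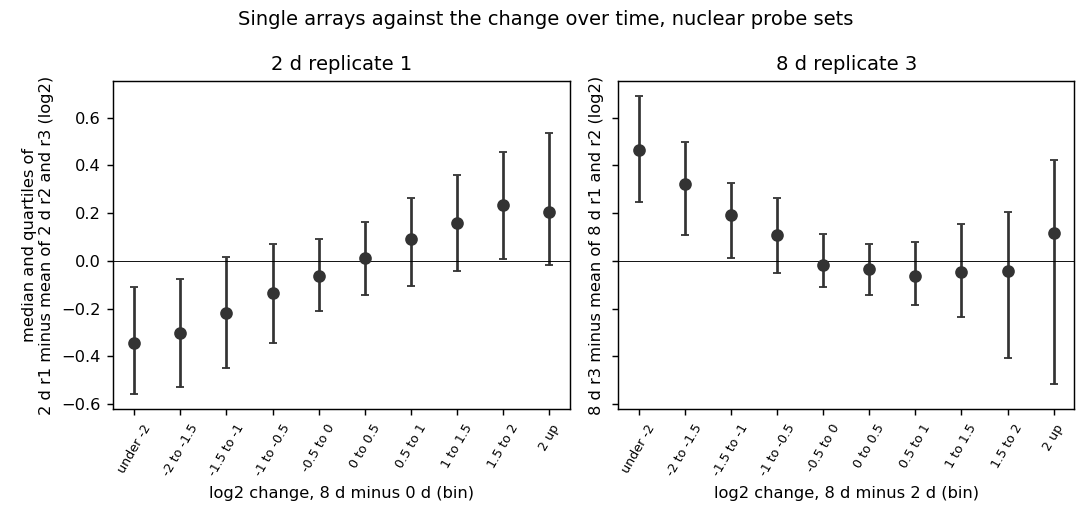
Median (points) and quartiles (bars) of the deviation of 2 d replicate 1 from the mean of the other 2 d arrays, by bin of change from 0 d to 8 d, and of 8 d replicate 3 from the other 8 d arrays, by bin of change from 2 d to 8 d, log2 scale, nuclear probe sets over the signal limit. The left panel climbs from -0.34 to 0.23 before its last bin at 0.20, and the right panel drops from 0.46 to near 0, with a last bin at 0.11. The bins include the members.

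Genes of the chloroplast NDH complex, the enzyme that feeds electrons back from ferredoxin to plastoquinone, included some of the deepest falls of the named members. NdhN, a stromal-side subunit (AT5G58260), gave signals of 1432.5, 1347 and 1405 at 0 d, 1341, 2021 and 2199 at 2 d and 175, 256 and 398 at 8 d. Its mean went from 1854 ± 453 to 277 ± 113 (SD, n = 3), a log2 change of -2.79. NdhL (AT1G70760), a membrane subunit of the same part of the complex, gave 2195, 1924 and 1971.5 at 0 d, 1588, 2099 and 2506 at 2 d and 246, 319 and 461 at 8 d, a change of -2.62. In both genes the highest 8 d array stayed far under the lowest 2 d array, and in both 2 d replicate 1 was the lowest and 8 d replicate 3 the highest of its group.

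NdhS, the subunit that binds ferredoxin, had a smaller change of -1.66, with 2858, 2949 and 3040.1 at 0 d, 1588, 2864 and 2493 at 2 d and 628, 652 and 874 at 8 d. Its 2 d replicate 1 lay well under the other 2 d arrays. CRR42 (AT5G20935), a factor needed to assemble the part of the complex that holds NdhN and NdhL, had the deepest change of the group at -2.85, from 420.1, 508 and 499 at 2 d to 47.4, 65.5 and 91.3 at 8 d. Those 8 d signals are all under 100, a range in which fold changes are imprecise. CRR21, a pentatricopeptide repeat protein needed for editing of the plastid ndhD transcript, sat at the limit with 272, 276 and 268 at 2 d and 99.7, 100.5 and 88.6 at 8 d. It was an exception to the array pattern, since its 2 d arrays lay within a few units and 8 d replicate 3 was the lowest.

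Cpn60beta4, a chaperonin subunit specialised for folding the NdhH protein, went from 581, 689 and 720.5 at 2 d to 129, 149 and 153 at 8 d, a change of -2.20. PGRL1B belongs to the second cyclic route, with the PGR5 protein, and went from 672, 750.5 and 733 to 187.5, 187 and 274, a change of -1.76. TROL, the thylakoid rhodanese-like protein that tethers ferredoxin-NADP reductase to the membrane, went from 2843, 3709 and 3811 to 1019, 1073 and 1198.5, a change of -1.65. The 8 genes of this group had a median change of -1.98, with 2 d replicate 1 lowest in 7 and 8 d replicate 3 highest in 7.

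Factors that build the photosystems and the cytochrome complex had late changes from -1.96 to -1.51, within the range of the NDH and cyclic flow genes. PSB27 (AT1G03600), a lumenal protein of photosystem II assembly and repair, had one of the 8 strongest 2 d signals of all members, at 8660.3, 8197 and 8928 at 0 d, 7084, 7331 and 8629 at 2 d and 1925, 2046 and 2461 at 8 d. Its 8 d mean was 27.9% of its 2 d mean. Signals of different probe sets do not compare transcript amounts. PAM68, which acts early in photosystem II assembly, gave 846, 885 and 979.7 at 0 d, 728, 797 and 759 at 2 d and 249.6, 222.5 and 230.4 at 8 d, with an SD at 8 d of only 13.9 around a mean of 234. HCF101, an iron-sulfur cluster carrier needed for photosystem I, went from 1277.5, 1339 and 1773 to 344, 329 and 458, a change of -1.96.

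CCB3, of the machinery that attaches heme to cytochrome b6, was dimmer, with 233, 254.5 and 344 at 2 d and 82.5, 88.8 and 93.9 at 8 d, all 3 of the latter under 100. ATAB2, which promotes translation of photosystem subunits, was near the limit at -1.51, from 1469, 1737 and 1697 to 449, 613 and 679.9. AT1G52220, annotated as CURT1C of the proteins that bend thylakoid membranes at grana edges, gave 5470.2, 5263 and 5722 at 0 d, 3751, 4317 and 4694 at 2 d and 1143, 1265 and 1513 at 8 d. In this gene all 2 d arrays already lay under all 0 d arrays, at a change of -0.37, before the change of -1.71 to 8 d. In the pigment pathway, HEME2, a uroporphyrinogen decarboxylase at the branch towards heme and chlorophyll, also had 2 d arrays wholly below the 0 d arrays, going from 4055, 3356 and 4471 at 0 d to 2587, 3096 and 3052 at 2 d and 778.5, 775 and 1074 at 8 d. LIL3:1, a light-harvesting-like protein that helps to supply the chlorophyll side chain, was flat up to 2 d (-0.03) and then went from 2509, 3220.1 and 3216 to 587.5, 749 and 856, a change of -2.04.

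Redox proteins of the chloroplast made up 7 of the named members, with a median change of -1.86. Thioredoxins pass electrons from the photosystems to target enzymes, and 4 genes of this family were members, counting NTRC, a reductase with a thioredoxin domain. TRXF2, of the f type that activates Calvin cycle enzymes, gave 2317, 2482 and 2533 at 0 d, 1546, 1973 and 2467 at 2 d and 446, 410.5 and 559 at 8 d, a late change of -2.07. The y-type gene ty2 gave 3712, 3332 and 3737 at 0 d, 2310.2, 3171 and 2609.7 at 2 d and 435, 756.5 and 1221 at 8 d, and its 8 d arrays spread more than those of nearly every other member (SD of log2 signal 0.74). THX, the x type, which serves peroxide-reducing enzymes, went from 3047, 3705 and 4093.5 to 1102.5, 1178 and 1467, a change of -1.53. NTRC joins that domain to its own NADPH-dependent reductase and so works in the dark as well, and its signals were tight at 2054.5, 1961.5 and 2084 at 0 d, 2016, 1917 and 2084 at 2 d and 597, 676 and 769.5 at 8 d.

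TAPX, the thylakoid ascorbate peroxidase that removes hydrogen peroxide, went from 1287, 1923 and 1942.5 to 351, 377 and 466, the largest late change of the redox set at -2.09. AOR, a chloroplast enzyme that detoxifies reactive carbonyls, stood higher at 2 d than at 0 d within the flat limit, at 3119, 3217 and 3286.5 at 0 d, 3735, 4676 and 4737 at 2 d and 739.7, 1107.5 and 1529 at 8 d. The 0 d and 2 d arrays of AOR did not overlap. AT5G58330, annotated as the NADP-dependent malate dehydrogenase that exports reducing power as malate, was the most even member of the set at 8 d, with 1390.5, 1359 and 1312 after 3836, 4304 and 4202 at 2 d. For that enzyme 8 d replicate 3 was the lowest array, against the order seen in most members.

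Among the members named here, photorespiration was represented by a transporter and by 2 genes of the photorespiration list, a peroxisomal enzyme and AT1G11860. LrgB (AT1G32080), the plastid exporter of glycolate and importer of glycerate, had the deepest change of this set, with 4400.0, 4401 and 4813 at 0 d, 3343, 3932 and 4475 at 2 d and 413.5, 633 and 716 at 8 d, or -2.77 on the log2 scale. By the mean log2 signals, 14.7% of its 2 d level was left at 8 d. HPR (AT1G68010), the peroxisomal hydroxypyruvate reductase, gave 10465, 9803 and 8209 at 0 d, 7958, 10475 and 11703 at 2 d and 2181, 2918 and 4224 at 8 d, and its 2 d and 8 d arrays both ran in the order seen across the members. AT1G11860, held by the photorespiration gene list, gave 9843, 9423 and 9950.4 at 0 d, 7104, 9190.4 and 10437 at 2 d and 2705, 2879.7 and 3251 at 8 d, a change of -1.58. ALDH11A3, a cytosolic glyceraldehyde-3-phosphate dehydrogenase that yields NADPH, went from 2888, 3951 and 3964.5 to 857, 982 and 1479, a change of -1.73.

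Calcium signalling and gene regulation were also represented. CaS, the thylakoid calcium-sensing protein involved in stomatal and light responses, gave 5629, 5499 and 5923 at 0 d, 5695, 6909 and 7045 at 2 d and 1417, 1773 and 2432 at 8 d. The named regulators were dimmer. YAB3 and YAB5 belong to the YABBY family, whose leaf members are expressed on the lower side of developing leaves. YAB3 went from 397, 503 and 427 at 2 d to 125, 136 and 151 at 8 d and YAB5 from 233, 314 and 259.6 to 78.8, 86.1 and 117, changes of -1.69 and -1.53. Both were somewhat higher at 2 d than at 0 d, at 0.27 and 0.40. BZIP61, a bZIP transcription factor, had the largest late change among the regulators at -2.20, with 844, 886.5 and 788 at 0 d, 691, 1026 and 857 at 2 d and 175, 144.5 and 246 at 8 d.

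AGL87, a MADS-box gene, went from 214, 235 and 256 to 46.7, 59.3 and 68.3, and GT2, a trihelix factor, from 376, 326 and 376 to 82.7, 108 and 110.3. ATMYC1, a bHLH protein of epidermal patterning, stood near the lower signal limit at 156.5, 154 and 151 at 0 d, 113, 145 and 228.5 at 2 d and 33, 55.7 and 64.5 at 8 d. Its 2 d arrays spread widely around a mean of 162 ± 59.7 (SD, n = 3). ATC, a relative of the flowering repressor TERMINAL FLOWER, went from 267.5, 279 and 366 to 70.1, 113 and 87, a change of -1.77. For ATMYC1, AGL87 and CCB3, as for 32 members in all, the mean 8 d signal was under 100. PSY1R, the receptor kinase linked to the sulfated growth peptide PSY1, was of the same kind, with 150.1, 203.5 and 172 at 2 d and 67.7, 51.4 and 55.1 at 8 d.

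The calmodulin-binding IQD family, which links calcium signals to microtubules, gave one of the 10 largest falls. In iqd21 (AT3G49260) the signals were 339, 324 and 398 at 0 d, 436, 414.5 and 459.8 at 2 d and 53.8, 44 and 77.3 at 8 d, a change of -2.94, and 8 d replicate 3 was again the highest. IQD24 went from 315, 322 and 394 to 90, 97.2 and 157, a change of -1.62, after an early difference of 0.43.

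Genes linked to the cell wall made up 4 named members. EXPA16, an expansin that loosens walls, gave 365, 446 and 346 at 0 d, 232, 283 and 343 at 2 d and 87, 42.6 and 32.8 at 8 d, a late change of -2.51. Its 8 d arrays ran opposite to those of most members, with replicate 1 the highest and replicate 3 the lowest. XTH32, which cuts and rejoins xyloglucan chains, went from 737, 801 and 895 to 207, 317 and 323, a change of -1.55. TBL25 belongs to a family that adds acetyl groups to wall polysaccharides and went from 1645, 2262 and 2117 to 518, 567 and 832, a change of -1.67. CSLA03, a synthase of the mannan backbone family, gave 507, 507 and 656 at 0 d, 301, 557 and 521 at 2 d and 151, 140.5 and 132 at 8 d. Its 2 d replicate 1 lay far below the other 2 d arrays, whereas its 8 d arrays were close together.

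Specialised metabolism and detoxification supplied 6 named members with late changes from -2.04 to -1.54. UGT78D1, which adds rhamnose to flavonols, was the one with the largest early difference, at 361, 381 and 345 at 0 d, 226, 283 and 279 at 2 d and 67.5, 69.5 and 133 at 8 d, with all 2 d arrays under all 0 d arrays. CHIL, a chalcone isomerase-like protein that aids flavonoid synthesis, went from 314, 482 and 581 to 108, 143 and 152. AOP1, of a dioxygenase family known for glucosinolate side chains, went from 179, 289 and 262 to 73.6, 77.1 and 81.3, a change of -1.62 with a narrow spread at 8 d. GSTU18, a glutathione transferase, gave 1087.5, 1126 and 1024 at 0 d, 814, 1256 and 1239 at 2 d and 222, 231.5 and 364 at 8 d, a change of -2.03. BGLU40, a beta-glucosidase, gave 509.6, 519.6 and 474 at 0 d, 466, 760.2 and 822.5 at 2 d and 141, 178 and 167.5 at 8 d, a change of -2.04. CYP71B5, a cytochrome P450, went from 201, 274 and 279 to 53.5, 91.5 and 127, with the highest 8 d array not far below the lowest 2 d array. The plastid ribosome list held AT3G13120, which went from 6149, 6858 and 6691 to 1938, 1984 and 2307, a change of -1.66.

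Set side by side, the 24 named members of electron transport, assembly, pigments, redox and CaS had a median late change of -1.80, and the 20 named regulators, wall, specialised, IQD and receptor genes one of -1.68. The array order was present in both. Among the first, 2 d replicate 1 was lowest in 22 and 8 d replicate 3 highest in 21, and among the second in 18 and 15. This grouping was made after the values were seen.

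**Figure D4:**
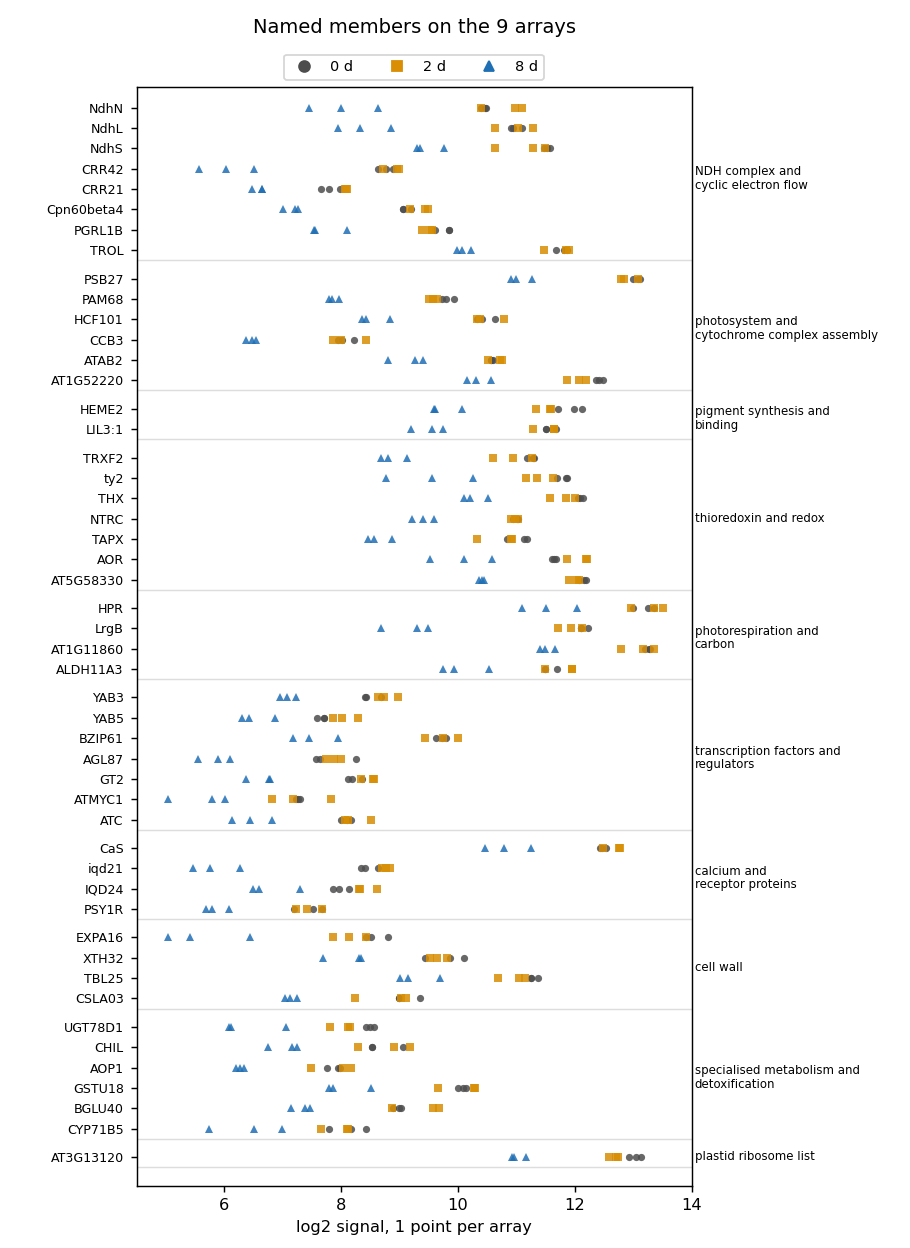
Log2 signal of 49 named members on the 9 arrays, 1 point per array, grouped by role (0 d circles, 2 d squares, 8 d triangles). In each gene the 8 d points lie apart to the left, while the 0 d and 2 d points overlap or lie close together.

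The largest falls belonged mainly to genes known by locus, as do 171 of all 216 member genes. AT5G48490 led, with 3237, 3032 and 3076.5 at 0 d, 2247.5, 3796 and 4651 at 2 d and 147, 187 and 495 at 8 d. Its mean log2 signals gave a change of -3.83, which left 7.01% of the 2 d level. It also had the widest spread of any member at 8 d, with an SD of log2 signal of 0.93, and replicate 3 stood far above its companions. AT1G11850 came next at -3.50, with 418, 356 and 347 at 2 d and 17.7, 39.4 and 51.3 at 8 d, signals so low that the fold is imprecise. AT1G33811 was steadier, at 1369.6, 1238.5 and 1229.8 at 0 d, 1304, 1152 and 1274 at 2 d and 103, 114 and 166 at 8 d, a change of -3.31.

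AT2G04570 went from 395, 424 and 456 to 27.7, 56.7 and 63 (-3.20), again to a dim level. AT5G44680 went from 654.5, 1240.5 and 1748 to 85.3, 126 and 234 (-3.05) and AT5G16030 from 1411, 2003 and 2699.7 to 283, 181 and 286 (-3.01). Both had 2 d arrays that differed among themselves by more than their 0 d arrays did. The rest of the 10 largest were AT5G55620 at -2.97, iqd21, AT2G34620 at -2.92 and AT5G45950 at -2.87. In AT2G34620 the 0 d signals of 2904, 2904 and 2667 had already given way to 1482, 2097 and 2575 at 2 d, the largest early difference admitted, before 188, 286 and 340.3 at 8 d. AT5G45950 gave 1651, 1799 and 1707 at 0 d, 917, 1617 and 1479 at 2 d and 128, 188 and 234 at 8 d, also with all 2 d arrays under all 0 d arrays.

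The strongest 2 d signals included, besides PSB27, HPR, AT1G11860 and AT3G13120, those of AT1G09310, AT3G16370, AT3G05730 and AT4G16980. AT1G09310 gave 13093, 11990.5 and 11743 at 0 d, 10572, 10842 and 11241 at 2 d and 2743.5, 3619 and 4337 at 8 d. AT3G16370 gave 11613, 9541.5 and 10481 at 0 d, 8522, 10887 and 10788 at 2 d and 2294.5, 2912 and 3771 at 8 d. Their late changes of -1.63 and -1.77 were close to the members' median. AT3G05730 gave 7835, 8559.7 and 6982 at 0 d, 10163, 7737.5 and 10559 at 2 d and 3304, 4081 and 2579 at 8 d, with 8 d replicate 3 the lowest array rather than the highest. AT4G16980 went from 5851, 7737 and 7927 to 1446, 1399 and 2187, a change of -2.11. Among members with the largest spread within a time point, AT3G06070 differed most at 2 d, at 187, 387 and 577, while AT5G64100 gave 636, 551 and 244.5 at 8 d, with replicate 3 the lowest.

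Relatives of the members that the rule did not admit were tested with limma. The families were picked after values were seen, and the rule used the same contrast to leave most of these genes out. Of 8 measured genes with NDH-related names, 5 were members, and the other 3 were called lower in 8 d against 2 d by limma. CRR28 changed by -1.16 (SE 0.13, adjusted p = 3.6e-05), PIFI, a factor of NDH-dependent chlororespiration, by -1.14 (SE 0.14) and CRR41 by -1.03 (SE 0.14). PIFI gave 2793, 3361 and 3504 at 2 d and 1561, 1210.2 and 1628 at 8 d. CRR28 was dim throughout, at 115, 103 and 102 and then 53, 51.7 and 39.4, and was at -0.89 after quantile normalization, short of the fold threshold. CRR41 was at -0.94 without 2 d replicate 3 and at -0.92 without 8 d replicate 3, and so short of it too.

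The measured thioredoxins differed among themselves. Against the 4 members, ATHM2, an m-type thioredoxin of the chloroplast, was called lower at -1.14 (SE 0.12, limma adjusted p = 2.1e-05), with 6308, 7026 and 6288 at 2 d and 2720.5, 2841 and 3376.5 at 8 d, but reached -0.95 after quantile normalization. TY1, the paralog of the member ty2, was at 0.57 (SE 0.14), with 276, 195 and 231 at 2 d and 347, 339 and 342 at 8 d, and was not called. TO1 and TO2, of the o type found in mitochondria, were at -0.02 and 0.47 and were not called either. Of the photosystem II accumulation factors, none a member, LPA19 at -1.19, LPA2 at -1.14 and LPA1 at -1.09 were called lower, and LPA66, an RNA editing factor, was at -0.42 and was not.

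Of the CURT1 proteins, CURT1A (AT4G01150) was called lower at -1.30 (SE 0.10), from 10119.7, 9938 and 10831 to 3959.8, 4004 and 4599, while CURT1D (AT4G38100) was at 0.16 (SE 0.18) and was not called. LIL3:2 and HEME1, the partners of the members LIL3:1 and HEME2, were called lower at -1.35 and -1.59. HEME1 had missed membership through its early change of -0.73. Of the chaperonin subunits, Cpn60beta2 was called lower at -1.01 and Cpn60beta3 higher at 1.02, both at the fold threshold. Cpn60beta2 was at -0.97 after quantile normalization, -0.82 without 2 d replicate 1 and -0.97 without 8 d replicate 2. Cpn60beta3 stood at 0.92 with arrays centred on their median, 0.98 on the 75th percentile and 0.89 on hybridisation controls. Leaving out 2 d replicate 2 gave 0.87, leaving out 2 d replicate 3 gave 0.99, and leaving out 8 d replicate 3 gave 0.96.

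The IQD family went both ways. Beside the members iqd21 and IQD24, IQD19 was called lower at -1.09 (SE 0.22) and IQD22 higher at 1.27 (SE 0.12, limma adjusted p = 1.1e-05). IQD22 gave 379, 358 and 378 at 2 d and 869, 790.1 and 1048 at 8 d, with no overlap. IQD19 was dim and lost its call after quantile normalization (-0.94) and without 8 d replicate 1 (-0.80). The other 6 were between -0.10 and 0.83 and were not called, although IQD26 was at 1.03 without 2 d replicate 3 and 1.11 without 8 d replicate 1. UGT78D2, which adds glucose where UGT78D1 adds rhamnose, was at -0.90 (SE 0.11). It missed the fold threshold, though quantile normalization brought it to -1.05, arrays centred on their median to -1.001 and on hybridisation controls to -1.02. Both measured YABBY genes were members. Among all these relatives, adding 64 to each signal, which shrinks the changes of dim probe sets, ended the calls of CRR28 (-0.61), CRR41 (-0.78), LPA1 (-0.97), LPA19 (-0.99), Cpn60beta2 (-0.97), Cpn60beta3 (0.95) and IQD19 (-0.67). Adding 16 ended those of CRR28 (-0.945), CRR41 (-0.95), Cpn60beta2 (-0.997) and IQD19 (-0.94).

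**Figure D5:**
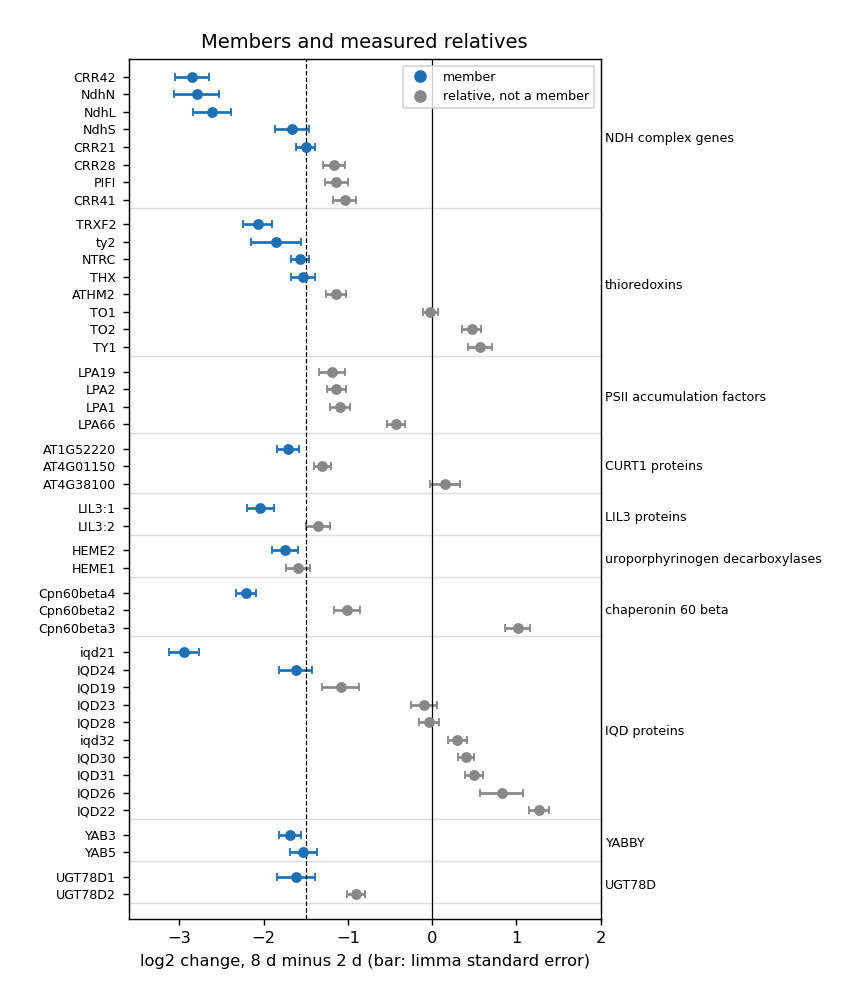
Log2 change from 2 d to 8 d of members (blue) and of relatives that are not members (grey), with limma's standard error from 3 arrays per time point as bars and the rule's limit of -1.5 as a dashed line. NDH-related genes all lie left of 0, whereas thioredoxins run from -2.07 to 0.57 and IQD genes from -2.94 to 1.27.

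A wider view came from 22 lists of 334 genes for chloroplast functions, leaf development, specialised metabolism, light signalling and cell types, of which 49 genes were found among the named probe sets and 9 were members. Of the other 40, 26 were called lower and 2 higher in 8 d against 2 d, against backgrounds of 14.7% and 7.36%. In 2 d against 0 d, 4 were called lower, against a background of 5.20%, and 2 of these were the root hair markers EXPA7 and GH9C1. The lists were chosen with earlier results of these data known, so these counts are a description. The counts cover only list genes found among the named probe sets of a table that appears preselected on these arrays. The median late change was -1.30 over all 49 list genes, against 0.26 for all probe sets. These 49 hold the 9 members, which the rule selected on this contrast, so the rule partly fixed that median. The 26 include PSBY, SBPASE, CHLM, PRK, FMA and STOMAGEN, which the rule leaves out by name. All 5 other measured genes of the plastid ribosome list were lower at 8 d, led by AT1G64510 at -2.07, AT1G29070 at -1.88 and AT3G54210 at -1.82. Their early changes of -0.67, -0.67 and -0.69 put them outside the flat limit.

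In chlorophyll synthesis, CHLI2, a subunit of magnesium chelatase, was called lower at -2.18 (SE 0.12), from 770.2, 875 and 863 to 166, 181 and 209.7, also after an early change of -0.66. All 3 measured light-harvesting genes were called lower, and LHCB4.3 had already been called lower at 2 d with a change of -2.60. LHCB4.1 was at -0.94 after quantile normalization, short of the fold threshold. PSAN (-0.89), ATPC1 (-0.72), AT2G26500 (-0.73) and AT1G74470 (-0.96), of other chloroplast lists, lost their lower calls there too. GSA1 (-1.01) and UGT78D2 (-1.05) gained one. Both higher genes came from lists outside the chloroplast. PHV, a regulator of the upper leaf side, changed by 1.39 (SE 0.12), from 639.8, 531 and 631 to 1669, 1415 and 1626.5, while the lower-side genes YAB3 and YAB5 were lower. BCAT4, an enzyme of glucosinolate synthesis, changed by 1.21 (SE 0.13).

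Few cell type markers were found among the named probe sets. Of 5 guard cell markers only FMA was found, at 122, 122 and 122 at 0 d, 228, 139 and 128 at 2 d and 43.1, 77.6 and 66.3 at 8 d. Its lower call in 8 d against 2 d ended with 64 added to each signal, at -0.84. Of 4 root hair markers EXPA7 and GH9C1 were found, and both were called lower at 2 d, with changes of -2.44 and -2.07, and not in 8 d against 2 d. EXPA7 gave 606, 595 and 410.4 at 0 d, 61.6, 115 and 131 at 2 d and 112, 108 and 62.7 at 8 d. None of the xylem, phloem or endodermis markers was found among them, though the probe sets unnamed here could hold some. The part of changing cell types in the members' time course was not tested.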

How the data were processed

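Total RNA of whole seedlings was measured on 9 Affymetrix arrays in 3 groups of 3, grouped by the sample titles. The deposited intensity of each probe set is linear, spans 7.05 to 27573, and came from MAS5, per the submitters' processing notes, run by the authors with a version and scaling target not given in the sources used here. Because MAS5 usually scales every array to a common target, a value is relative to the array's other transcripts. Detection calls were not used, and signals under about 100 are imprecise. Precision is limited by the number of arrays. The table contained 10343 probe sets and 23 controls, and the probe sets appear preselected on these arrays, which makes adjusted p-values too small. Probe sets outside it were not analysed here. Of the tested probe sets, 5455 match 1 nuclear gene (5444 named through the reference gene table of TAIR10.1, 11 by the array annotation), 214 match several genes and 4608 are unnamed here.

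Signals were floored at 1, which changed 0 values, and log2 was taken. Linear models with 1 mean per group over all 9 arrays were fitted by lmFit and eBayes of limma 3.58.1 under R 4.3.3, and two-sided p-values were adjusted across all 10343 probe sets (Benjamini-Hochberg). A call needs an adjusted p under 0.05 and an absolute log2 change of at least 1. Tested on simulated data for 8 d against 2 d (10343 probe sets), the fit recovered 92% of changes of 1.25 on the log2 scale, 98% of 1.5, 98% of 2 and 100% of 3, with 1 false call. The simulated noise was independent between probe sets, without the array order that many probe sets share here. These rates therefore need not hold for the measured data.

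The members and the gene lists were chosen with earlier results of these data known, and the roles and families after their values were seen. The genes named are the members with the 10 largest falls, the 8 strongest 2 d signals and the 6 largest SDs, the 4 nearest each side of each limit (on the far side of the signal limit, only 2 existed), members with a symbol, in a list, or adjacent in the genome, and list genes as examples. No sequences were printed and promoter motifs were not analysed here. Alternatives were quantile normalization, centring on the median, 75th percentile or hybridisation controls, 16 or 64 added to each signal, the dimmest 40% left out, medians in place of means, another prior, only the compared groups, the replicate number as a block, and each array left out.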

Additional observations from a re-analysis of the deposited data

How the results depend on the processing

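The count of 217 members stayed within 1.5 times under all alternatives run. It was 252 after quantile normalization (198 shared with the 217), 230 after median centring (179 shared), 228 after centring on the 75th percentile (216 shared), 250 after centring on hybridisation controls (180 shared, an alternative chosen after seeing the data), 190 and 145 with 16 and 64 added to each signal (186 and 140 shared), 150 without the dimmest 40% of probe sets and 223 with medians in place of means (186 shared). With single arrays left out it ran from 184 without 8 d replicate 1 to 244 without 8 d replicate 3. The members' median change under these settings lay between -1.95 and -1.60. Centring on hybridisation controls moved the median change of all probe sets from 0.26 to 0.14 for 8 d against 2 d and from 0.19 to 0.38 for 2 d against 0 d. Over 62 named members and 16 settings, 944 values of the change from 2 d to 8 d stayed within 1 SD of their own arrays. Another 26 moved by more, 18 of them with 64 added, and 0 changed sign. The settings without a 0 d array or without the dimmest 40% cannot alter this change, so their part of the 944 was fixed in advance. Because every member's 8 d arrays all lie below its 2 d arrays, leaving out an array or adding a constant cannot reverse the sign. The calls over the table, 2285 in 8 d against 2 d, became 1363 without the dimmest 40% of probe sets, where fewer probe sets were tested. In the same way 1546 calls in 2 d against 0 d became 703, or 965 with 64 added, and 4502 calls in 8 d against 0 d became 2444. Leaving out single arrays gave 2162 to 2607, 1497 to 1681 and 4418 to 4615 calls, and 24 to 29 of the 40 list genes called lower. That list count was 23 after quantile normalization and 31 with arrays centred on their median or on hybridisation controls. With the replicate number as a block, the counts were 2285, 1548 and 4503, and 26 list genes. Same-numbered arrays correlated at -0.09 to 0.23 in their deviations from the group means, and arrays of different number at -0.27 to 0.23. Between 2 d and 8 d the same-numbered values were 0.23, -0.09 and 0.17 for replicates 1, 2 and 3. Whether arrays of the same number are linked was not tested. The mean signal under 100 at 8 d in 32 members limits their folds.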

Other observations

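There were 4 pairs of members that are direct neighbours in the reference gene table (TAIR10.1), although only 89 of the 216 genes have a next gene on either side among the probe sets measured. AT1G11850 lies beside AT1G11860, with late log2 changes of -3.50 and -1.58. AT1G29660 and AT1G29670 changed by -1.99 and -1.78. AT4G28025 and AT4G28030 changed by -1.61 and -2.03. AT4G33660 and AT4G33666 changed by -1.79 and -2.38. AT1G51110 was the single gene with 2 member probe sets, which gave late changes of -2.29 and -1.74 and early changes of 0.19 and -0.0044.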
